A study of Mus musculus with 18 samples.

Results

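The 41 genes described here form an interferon response module: 4 signal transducers and transcription factors (Stat2, Irf9, Irf7, Irf1), the ubiquitin-like modifier Isg15 and its protease Usp18, 4 nucleic acid sensors (Ifih1, Ddx58, Dhx58, Zbp1), 5 IFIT genes, 5 genes of the OAS family, 15 other antiviral effectors, 5 interferon-inducible GTPases and the chemokine Cxcl10. They were chosen by symbol as genes of the interferon response, with earlier results of these data known. Each of the 41 symbols matched 1 Ensembl gene ID among the 46078 genes of the count table. 40 of them had enough reads to be tested, and Oas2 did not.

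The libraries are full-length SMART-seq RNA-seq libraries, each from 200 cells sorted from C57BL/6 mice aged 8 weeks. There were 6 groups of 3 libraries: liver NK cells, ILC1s of the liver and ILC1s of the spleen, each from control mice and from RARα403 mice. ILC1s, the tissue-resident type 1 innate lymphoid cells, were gated as IL-7R+ CD49a+ cells with low CD49b, and NK cells as CD49b+ CD49a- cells, both within NKp46+ NK1.1+ CD3- cells. The control genotype is Ncr1-Cre. The RARα403 genotype is Ncr1-Cre with Rosa26-RARα403, a truncated, dominant-negative retinoic acid receptor alpha that Cre switches on from the Rosa26 locus. All 6 groups therefore carry Ncr1-Cre, which acts in NKp46-expressing cells, and NKp46 is also in both gates. The labels give neither the sex of the mice nor which libraries share a mouse, so p-values measure the spread between libraries, which may be technical in part.

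Interferons reach the nucleus through JAK kinases and STAT proteins. Type I interferon leads to a complex with STAT2 and IRF9 that binds interferon-stimulated response elements in the promoters of genes such as Isg15, the IFIT genes and Mx1, whereas interferon gamma acts mainly through gamma-activated sequences near genes such as Irf1 and the GTPase genes. Resting cells keep a low tonic level of many of these genes. NK cells and ILC1s both respond to type I interferon and are themselves major sources of interferon gamma.

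Total counts per library ran from 3452279 to 9038767. The library labelled liver NK RARα403 1 stood apart: 192 of 2735 genes (7.02%) above 50 CPM (counts scaled to the size of the library) in every other library had at most 3 counts there, against 0 in each of the other 17 libraries, and its mean correlation across genes with its own group was 0.80. Transcripts of the targeted Rosa26 locus (Gt(ROSA)26Sor) gave 104 to 1260 counts in the 9 controls and 0 to 10 counts in RARα403 libraries 2 and 3 of each population. The libraries labelled RARα403 1 gave 5.82 log2 CPM of it in spleen ILC1s and 5.97 in liver ILC1s, where the controls spanned 4.51 to 7.25, and 0 counts in liver NK cells. Rara itself had 119 to 399 counts in the other 17 libraries and 1764 in the library labelled liver NK RARα403 1. In that library the 10 NK and ILC1 identity genes summed to 2700 CPM, against 8234 to 10883 CPM in the others. Itga1 (CD49a), which the NK gate leaves out, had 798 counts there against 0, 37 and 10 in the NK controls, so that library goes against its label in this gene. Il7r had 855 counts there, against 185, 642 and 215 in the NK controls and 84 and 864 in liver NK RARα403 libraries 2 and 3. Eomes, Itga2 (CD49b) and Cxcr6 went with the label, at 1819, 411 and 0 counts there. The NK controls had 3248 to 4974, 559 to 1184 and 0 to 2 counts of them. Counts of genes by direction, medians and module means of the RARα403 comparisons are therefore given with and without the libraries labelled RARα403 1.

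Of the 41 genes, 33 could be matched to a RefSeq promoter window, which spans 250 bases before to 50 bases after an annotated start on GRCm38.p6, the reference build that mm10 represents. The core of the interferon-stimulated response element, 2 copies of GAAA with any 2 bases between them, on either strand, stood in the window of 21 of these 33 genes (63.6%), against 1079 of 27018 genes of the RefSeq table (3.99%). The core of the gamma-activated sequence, TTCNNNGAA, stood in 10 of 33 (30.3%), against 9.55% of all genes. 5 of the genes (Bst2, Eif2ak2, Gbp7, Igtp, Oas1a) held both, and in Bst2 alone did the matches of both motifs share bases. These are matches of letters, and no binding was measured. The stretches below stand for the classes on which the results turn and are written 5′ to 3′ on the strand of the gene, with the matches of the response element core in capitals. A match on the opposite strand reads as 2 copies of TTTC with 2 bases between them. The stretches lie before the annotated start, outside annotated genes.
Isg15: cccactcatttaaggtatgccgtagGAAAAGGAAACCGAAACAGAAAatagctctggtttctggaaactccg
Ifit1: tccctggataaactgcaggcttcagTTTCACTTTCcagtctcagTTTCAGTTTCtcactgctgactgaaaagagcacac
Ifit3: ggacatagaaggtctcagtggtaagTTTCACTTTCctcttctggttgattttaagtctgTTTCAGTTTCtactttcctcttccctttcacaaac
Ifit3b: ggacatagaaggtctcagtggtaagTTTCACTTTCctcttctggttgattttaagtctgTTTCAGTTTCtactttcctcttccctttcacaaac
Ifit1bl1: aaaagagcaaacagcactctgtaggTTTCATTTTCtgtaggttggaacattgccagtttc
Oas1a: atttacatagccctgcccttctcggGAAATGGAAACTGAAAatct
Igtp: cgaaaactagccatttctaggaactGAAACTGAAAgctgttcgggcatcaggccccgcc
Gbp7: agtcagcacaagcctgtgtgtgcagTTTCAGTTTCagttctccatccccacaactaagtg
Cxcl10: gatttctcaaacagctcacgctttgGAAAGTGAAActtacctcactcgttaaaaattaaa

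The Isg15 stretch (chr4:156200850-156200921, minus strand) held 3 matches that run into each other. Those of Ifit1 (chr19:34640760-34640838, plus strand) and Ifit3 (chr19:34583348-34583441, plus strand) held 2 separate matches each. The Ifit3b stretch (chr19:34607744-34607837, plus strand) had the same 94 bases as that of Ifit3. Ifit1bl1 (chr19:34602038-34602097, minus strand), Igtp (chr11:58199497-58199555, plus strand), Gbp7 (chr3:142530258-142530317, plus strand) and Cxcl10 (chr5:92349068-92349127, minus strand) held 1 match each in the stretch shown, and Oas1a (chr5:120907526-120907570, minus strand) 2 that overlap. Igtp and Gbp7, the GTPase genes shown here, are among the genes that held both motifs. The other GTPase genes, Gbp2, Gbp3 and Irgm1, held the response element core without that of the gamma-activated sequence, so both motifs together are not a trait of the class.

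19 of the 41 genes lie in 7 stretches in which neighbouring members are at most 500 kb apart. The stretch with the most members is that of the Ifit genes on chromosome 19 (mm10, 34550694 to 34650009), with Ifit2, Ifit3, Ifit1bl1, Ifit3b and Ifit1 within 99.3 kb. Oas2, Oas3 and Oas1a lie within 177 kb on chromosome 5, and Oasl2 and Oasl1 within 41 kb elsewhere on that chromosome. Gbp7, Gbp3 and Gbp2 share 108 kb of chromosome 3. Rsad2 and Cmpk2 are neighbours on chromosome 12, Mx1 and Mx2 on chromosome 16, and Trim12a and Trim30a lie in 1 stretch of chromosome 7. Some of these copies are so alike that reads can be split between them: of the 50-base words in their transcripts, Oas1a shared 57.6% with another gene (Oas1g), Ifit3 51.2% (Ifit3b), Ifit3b 45.0%, Gbp7 12.7%, Igtp 11.8% (Irgm2), Rtp4 11.6% and Trim12a 10.4%. Values of these 7 genes are uncertain in that respect, since the counting of multi-mapped reads and the strand setting are not stated in the sources used here. The other 34 genes shared under 10%.

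All 41 genes had reads in at least some of the libraries, but the module falls into a steady part and a sporadic part. 20 genes had counts in all 18 libraries, and 8 more were at 0 only in the library labelled liver NK RARα403 1. At the other end, 7 genes were at 0 in 7 or more libraries: Oas2 in 14, Mx2 in 12, Ifit3b in 10, Ifi44 and Cxcl10 in 9, Rsad2 in 8 and Oasl2 in 7. Together the 41 genes took 0.248% to 0.435% of the counts of a library. A library had 1 to 9 members at 0, except for the library labelled liver NK RARα403 1, which had 16. A floor of 3 counts, chosen for lower bounds, lies at 0.332 to 0.869 CPM, depending on the library. Some genes had 1 or 2 counts in a library, and this floor covers counting error only.

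**Figure D1:**
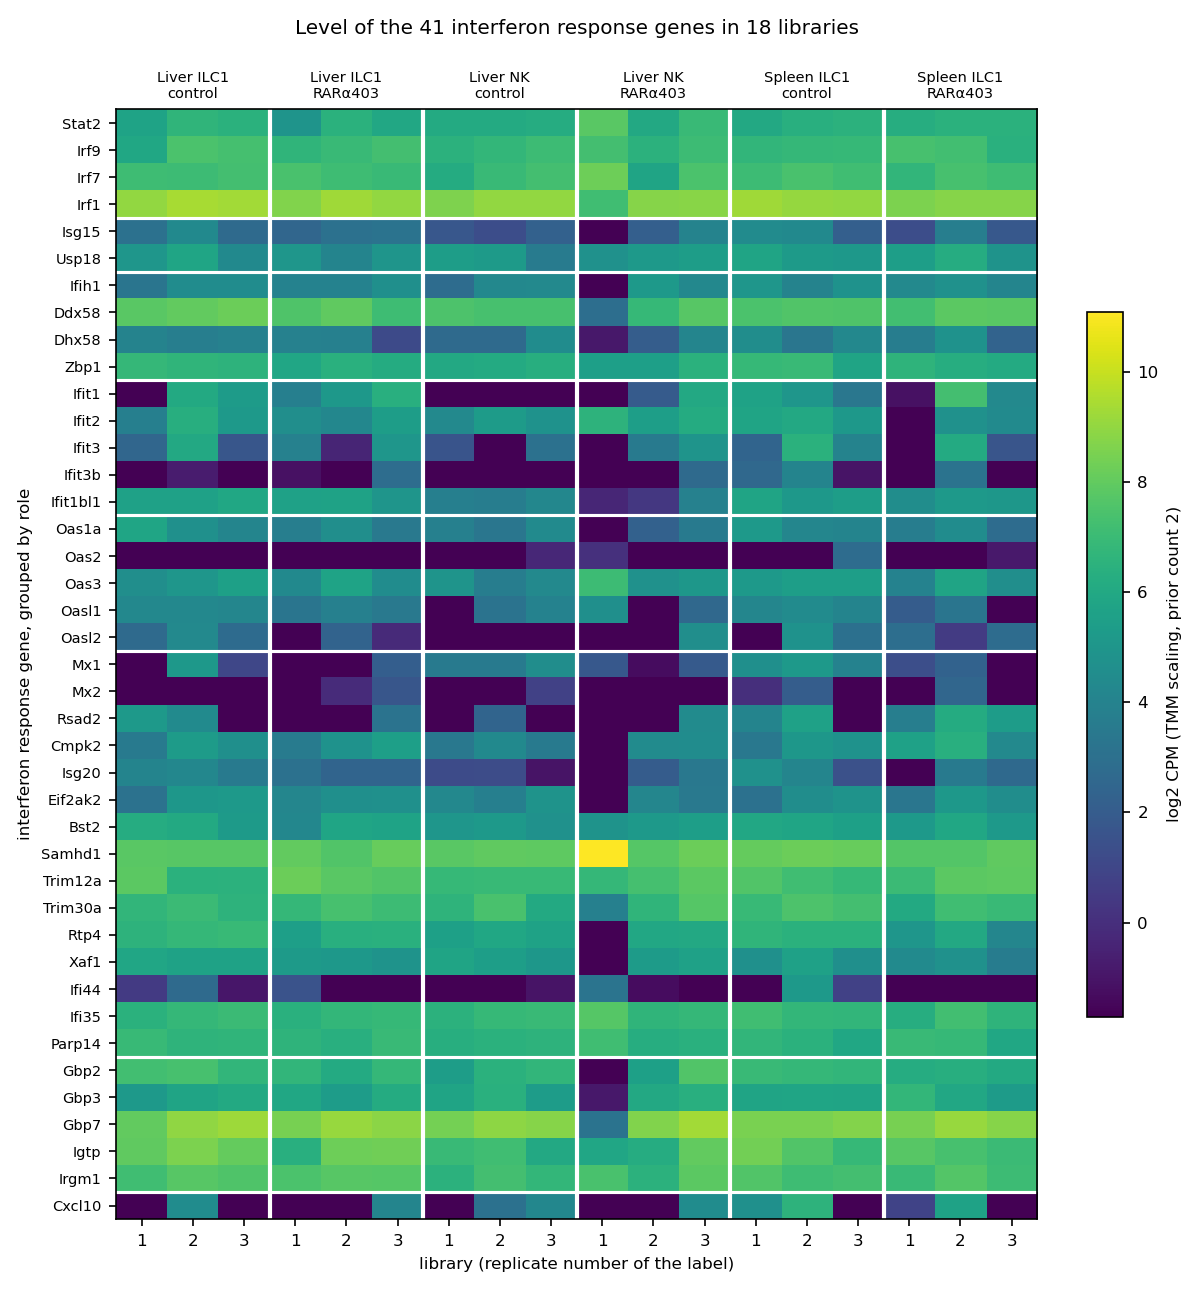
Heat map of log2 CPM (colour) for the 41 genes (rows, grouped by role) in the 18 libraries (columns, 3 per group, numbered as in the labels). Irf1, Gbp7, Igtp and Samhd1 are high in nearly all columns, Oas2, Mx2 and Ifit3b are dark in most, and the column of liver NK RARα403 library 1 has 16 genes at 0 counts.

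Per kilobase of exon, Irf1 led the module with a median of 129 CPM per kb over the 18 libraries, followed by the GTPase genes Igtp (88.3) and Gbp7 (76.0), by Ifi35 (64.6) and by Bst2 (45.4). Isg15 stood at a median of 7.74 CPM per kb, Ifit1 at 6.28, Rsad2 at 1.56, Mx1 at 1.00 and Cxcl10 at 0.342. The lowest members, Mx2, Ifit3b and Oas2, had a median of 0. Per length, the first 10 in the order held Irf1 and Irf7, the GTPase genes Igtp, Gbp7, Gbp2 and Irgm1, and the antiviral effectors Ifi35, Bst2, Rtp4 and Trim30a. In bulk libraries of this kind, fewer cells that express a gene and less RNA of it per cell cannot be told apart.

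In what follows, levels of a gene are log2 CPM (scaled by the trimmed mean of M-values, TMM, with a prior count of 2) for libraries 1, 2 and 3 of each group, in that order, and a library without reads is given as 0 counts, which lies at -1.71 on this scale. Each comparison was tested for all 14714 genes that passed the filter on low counts, with edgeR's quasi-likelihood test and Benjamini-Hochberg adjustment, called here the edgeR adjusted p, at a threshold of 0.05.

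The signal transducers were at steady, middle to high levels. Irf1, a transcription factor induced by interferon gamma and needed for NK cell development, was the highest: the controls stood at 9.0, 9.42 and 9.31 in liver ILC1s, 8.63, 9.02 and 9.03 in NK cells and 9.25, 9.08 and 9.02 in spleen ILC1s. Irf1 in the RARα403 libraries was 8.68, 9.29 and 9.04 in liver ILC1s, 7.16, 8.77 and 8.83 in NK cells and 8.57, 8.76 and 8.77 in spleen ILC1s, with the lowest value of all in the library labelled liver NK RARα403 1. The 3 spleen RARα403 libraries lay below the 3 spleen controls, without overlap. Stat2, a subunit of the type I complex, stood in controls at 5.70, 6.66 and 6.48 in liver ILC1s, 6.10, 6.14 and 6.23 in NK cells and 6.00, 6.39 and 6.49 in spleen ILC1s. Stat2 under RARα403 was 4.91, 6.46 and 5.97 in liver ILC1s, 7.83, 6.03 and 6.97 in NK cells and 6.24, 6.47 and 6.46 in spleen ILC1s, and only liver NK libraries 1 and 3 exceeded the highest control. Irf9, the DNA-binding subunit of the same complex, was 5.91, 7.49 and 7.33 in liver ILC1s, 6.53, 6.75 and 7.07 in NK cells and 6.70, 6.81 and 6.85 in spleen ILC1s in controls. Irf9 under RARα403 was 6.68, 6.97 and 7.24 in liver ILC1s, 7.25, 6.5 and 7.06 in NK cells and 7.38, 7.21 and 6.42 in spleen ILC1s, with values on both sides of the controls in spleen and overlap in liver. Irf7, which drives the interferon alpha genes, was 7.12, 7.05 and 7.24 in liver ILC1s, 6.16, 6.94 and 7.29 in NK cells and 7.08, 7.40 and 7.16 in spleen ILC1s in controls. Irf7 under RARα403 was 7.39, 7.09 and 6.95 in liver ILC1s, 8.25, 5.78 and 7.45 in NK cells and 6.72, 7.38 and 7.13 in spleen ILC1s, so that the liver NK RARα403 group held both the highest and the lowest Irf7 value of the series.

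Isg15, the ubiquitin-like protein that is conjugated to other proteins after interferon, was low. Control levels of Isg15 were 3.06, 4.34 and 2.72 in liver ILC1s, 1.77, 1.33 and 2.29 in NK cells and 4.47, 4.34 and 2.18 in spleen ILC1s. RARα403 levels of Isg15 were 2.52, 3.09 and 3.15 in liver ILC1s, 0 counts, 2.18 and 4.02 in NK cells and 1.30, 3.74 and 1.82 in spleen ILC1s, and in no population did the genotypes separate. Usp18, which removes ISG15 and dampens the type I receptor, was 5.0, 5.83 and 4.38 in liver ILC1s, 5.41, 5.27 and 3.62 in NK cells and 5.76, 5.27 and 5.14 in spleen ILC1s in controls. Usp18 under RARα403 was 5.01, 4.09 and 4.97 in liver ILC1s, 4.75, 5.22 and 5.42 in NK cells and 5.46, 6.23 and 4.88 in spleen ILC1s, which overlaps the controls in each population. Among the cytosolic sensors, Ddx58 (RIG-I) had the highest mean over the libraries, 7.34, followed by Zbp1 (6.28), Ifih1 (MDA5, 3.95) and Dhx58 (LGP2, 3.28).

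The IFIT proteins bind foreign RNA and block its translation. Ifit1 (ENSMUSG00000034459, chromosome 19, 34640871 to 34650009 on mm10, a protein-coding gene) stood in controls at 0 counts, 6.07 and 5.29 in liver ILC1s, 0 counts in every library in NK cells and 5.65, 4.99 and 3.34 in spleen ILC1s. Ifit1 under RARα403 was 3.84, 5.11 and 6.37 in liver ILC1s, 0 counts, 1.99 and 6.02 in NK cells and -1.12, 7.26 and 4.30 in spleen ILC1s. The 3 liver NK controls were thus the only group with no Ifit1 read in any library. Ifit3, a partner of IFIT1, was 2.52, 6.01 and 1.74 in liver ILC1s, 1.63, 0 counts and 3.07 in NK cells and 2.42, 6.45 and 4.03 in spleen ILC1s in controls. Ifit3 under RARα403 was 3.90, -0.41 and 5.03 in liver ILC1s, 0 counts, 3.55 and 4.92 in NK cells and 0 counts, 6.11 and 1.65 in spleen ILC1s, a spread of more than 5 log2 units within each RARα403 group. Ifit2 was more regular, at 3.8, 6.30 and 5.16 in liver ILC1s, 4.30, 5.30 and 4.79 in NK cells and 5.75, 5.99 and 5.12 in spleen ILC1s in controls. Ifit2 under RARα403 was 4.62, 4.23 and 5.40 in liver ILC1s, 6.57, 5.48 and 6.17 in NK cells and 0 counts, 4.79 and 4.43 in spleen ILC1s: above every control in liver NK cells, below every control in spleen ILC1s. Ifit1bl1, a mouse IFIT1-like gene, was 5.6, 5.62 and 5.93 in liver ILC1s, 3.83, 3.72 and 4.23 in NK cells and 5.77, 5.13 and 5.41 in spleen ILC1s in controls, the 2 ILC1 groups above the NK group. Ifit1bl1 under RARα403 was 5.59, 5.66 and 4.95 in liver ILC1s, -0.34, 0.38 and 3.93 in NK cells and 4.57, 5.22 and 5.09 in spleen ILC1s, with the liver NK libraries again lowest.

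Those members of the OAS family that are active enzymes sense double-stranded RNA and make the oligoadenylates that activate RNase L. Oas2 had 46 counts in all and was seen in 4 libraries, the highest being spleen ILC1 control 3 at 2.80. Oasl2 stood in controls at 2.71, 4.32 and 2.76 in liver ILC1s, 0 counts in every library in NK cells and 0 counts, 4.82 and 3.04 in spleen ILC1s. Oasl2 under RARα403 was 0 counts, 2.35 and -0.20 in liver ILC1s, 0 counts, 0 counts and 4.61 in NK cells and 2.92, 0.54 and 2.84 in spleen ILC1s, and the NK controls were again the group with no read. Oas3 was found in every library, at 4.61, 5.01 and 5.55 in liver ILC1s, 4.93, 3.71 and 4.30 in NK cells and 5.21, 5.47 and 5.46 in spleen ILC1s in controls. Oas3 under RARα403 was 4.39, 5.74 and 4.52 in liver ILC1s, 7.08, 4.76 and 5.08 in NK cells and 3.99, 5.79 and 4.63 in spleen ILC1s, and the library labelled liver NK RARα403 1 was the highest of the 18. Oasl1 was even in the ILC1 controls, with 4.24, 4.28 and 4.17 in liver ILC1s, 0 counts, 3.16 and 3.96 in NK cells and 4.18, 4.45 and 4.04 in spleen ILC1s. Oasl1 under RARα403 was 3.29, 3.89 and 3.48 in liver ILC1s, 4.65, 0 counts and 2.62 in NK cells and 2.00, 3.29 and 0 counts in spleen ILC1s, below every control in both ILC1 populations.

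Among the genes listed as other effectors, Mx2 is annotated as a polymorphic pseudogene. These are RNA levels, and no antiviral activity was measured. Mx1, a gene of the dynamin-like GTPase family, stood in controls at 0 counts, 5.10 and 1.02 in liver ILC1s, 3.52, 3.56 and 4.58 in NK cells and 4.66, 5.18 and 3.96 in spleen ILC1s. Mx1 under RARα403 was 0 counts, 0 counts and 2.13 in liver ILC1s, 1.80, -1.26 and 1.93 in NK cells and 1.39, 2.33 and 0 counts in spleen ILC1s, below every control in liver NK cells and in spleen ILC1s, while the liver ILC1 controls themselves spanned 0 counts to 5.10. Rsad2 (viperin, a radical SAM enzyme) was 5.22, 4.42 and 0 counts in liver ILC1s, 0 counts, 2.40 and 0 counts in NK cells and 4.05, 5.61 and 0 counts in spleen ILC1s in controls. Rsad2 under RARα403 was 0 counts, 0 counts and 3.15 in liver ILC1s, 0 counts, 0 counts and 4.45 in NK cells and 3.74, 6.18 and 5.39 in spleen ILC1s, so that no group was without a positive library and only spleen RARα403 had reads in all 3. Bst2 (tetherin, which holds budding virions at the membrane) was 6.20, 6.08 and 5.25 in liver ILC1s, 5.0, 5.20 and 4.78 in NK cells and 5.97, 5.81 and 5.55 in spleen ILC1s in controls. Bst2 under RARα403 was 4.23, 5.83 and 5.72 in liver ILC1s, 4.87, 5.17 and 5.48 in NK cells and 5.18, 5.92 and 5.21 in spleen ILC1s, so that all 18 values lay between 4.23 and 6.20.

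Samhd1, which degrades nucleotides needed for reverse transcription, was even outside 1 library, at 7.80, 7.77 and 7.77 in liver ILC1s, 7.82, 7.97 and 7.92 in NK cells and 8.07, 8.24 and 8.10 in spleen ILC1s in controls. Samhd1 under RARα403 was 8.03, 7.62 and 8.10 in liver ILC1s, 11.09, 7.70 and 8.21 in NK cells and 7.65, 7.64 and 7.95 in spleen ILC1s, where 11.09 belongs to the library labelled liver NK RARα403 1. Trim12a, a relative of the restriction factor TRIM5, was 7.86, 6.48 and 6.52 in liver ILC1s, 6.89, 6.94 and 6.92 in NK cells and 7.62, 7.17 and 6.86 in spleen ILC1s in controls. Trim12a under RARα403 was 8.21, 7.80 and 7.61 in liver ILC1s, 6.81, 7.30 and 7.88 in NK cells and 7.0, 7.88 and 7.90 in spleen ILC1s, and libraries 2 and 3 lay above every control in liver NK cells and in spleen ILC1s. Rtp4, an interferon-inducible chaperone, was 6.54, 6.81 and 6.92 in liver ILC1s, 5.57, 5.91 and 5.68 in NK cells and 6.64, 6.45 and 6.45 in spleen ILC1s in controls. Rtp4 under RARα403 was 5.51, 6.37 and 6.41 in liver ILC1s, 0 counts, 5.95 and 6.01 in NK cells and 5.0, 6.00 and 4.16 in spleen ILC1s, below every control in both ILC1 populations. Cxcl10, the CXCR3 ligand, was all or nothing: 0 counts, 4.52 and 0 counts in liver ILC1s, 0 counts, 3.05 and 4.23 in NK cells and 4.72, 6.55 and 0 counts in spleen ILC1s in controls. Cxcl10 under RARα403 was 0 counts, 0 counts and 4.14 in liver ILC1s, 0 counts, 0 counts and 4.52 in NK cells and 0.88, 5.65 and 0 counts in spleen ILC1s, so that 9 libraries had reads and 9 had none.

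The GTPases, which take part in the defence against intracellular pathogens, were expressed at high levels. Igtp (Irgm3; ENSMUSG00000078853, chromosome 11, 58199556 to 58207591, a protein-coding gene) was 7.97, 8.57 and 8.08 in liver ILC1s, 6.98, 7.16 and 6.01 in NK cells and 8.38, 7.60 and 6.86 in spleen ILC1s in controls. Igtp under RARα403 was 6.37, 8.25 and 8.34 in liver ILC1s, 5.88, 6.23 and 8.02 in NK cells and 7.77, 7.36 and 7.01 in spleen ILC1s. Liver ILC1 controls all lay above liver NK controls, and the spleen controls spanned 6.86 to 8.38. Irgm1 was 7.16, 7.76 and 7.54 in liver ILC1s, 6.52, 7.25 and 6.76 in NK cells and 7.60, 7.10 and 7.28 in spleen ILC1s in controls. Irgm1 under RARα403 was 7.47, 7.76 and 7.72 in liver ILC1s, 7.42, 6.5 and 7.85 in NK cells and 6.96, 7.66 and 7.06 in spleen ILC1s, and its 18 values fell between 6.5 and 7.85. Gbp2 was 7.23, 7.39 and 6.73 in liver ILC1s, 5.43, 6.48 and 6.73 in NK cells and 6.95, 6.80 and 6.70 in spleen ILC1s in controls. Gbp2 under RARα403 was 6.70, 6.11 and 6.83 in liver ILC1s, 0 counts, 5.59 and 7.60 in NK cells and 6.23, 6.29 and 6.05 in spleen ILC1s, and apart from the library without reads its lowest level was 5.43.

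**Figure D2:**
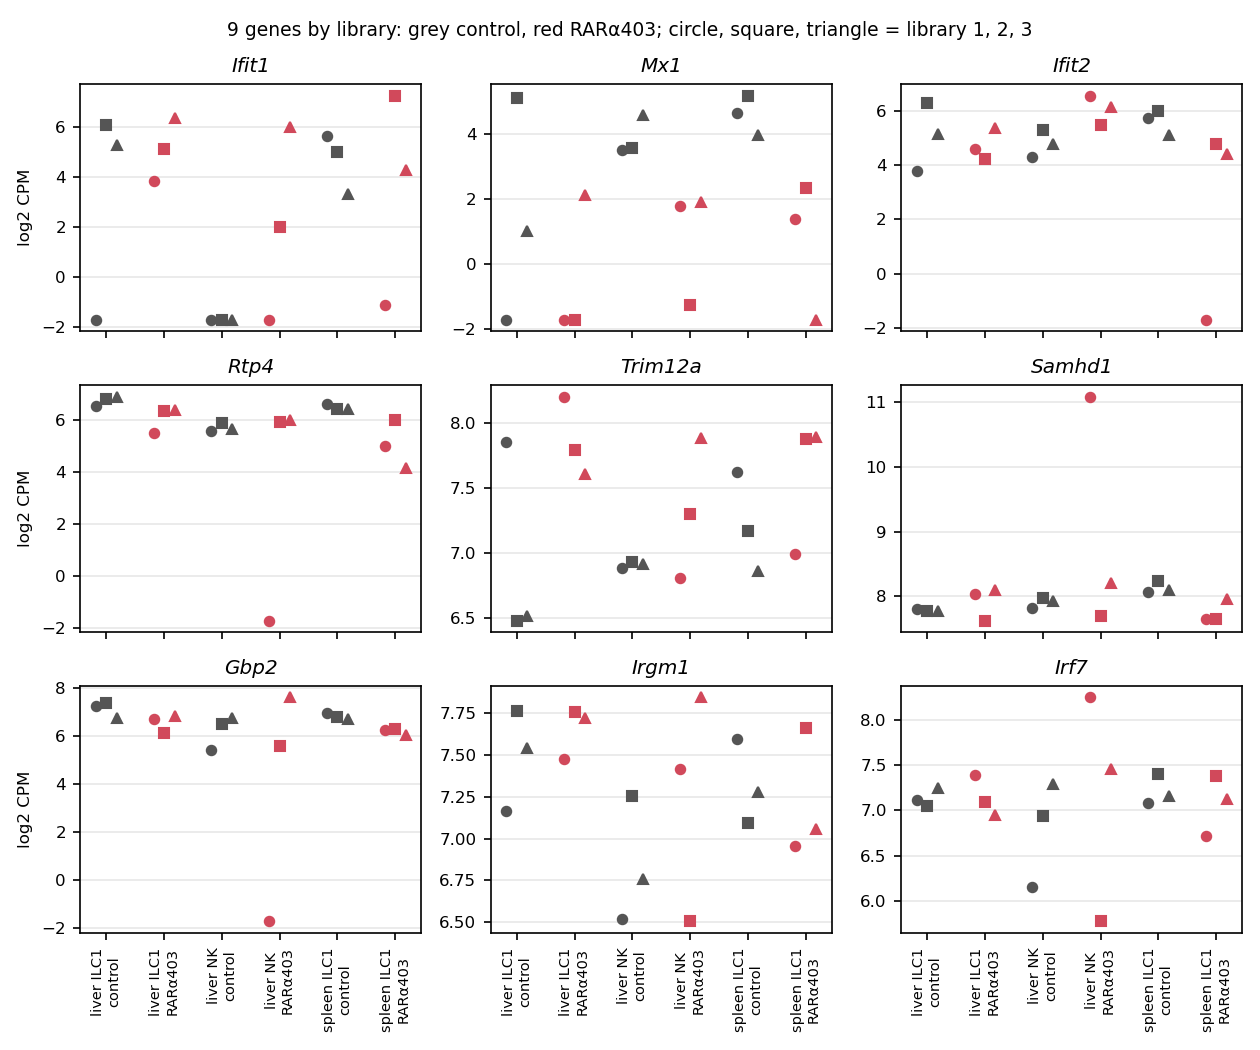
Levels of 9 genes in each library (log2 CPM; grey controls, red RARα403; circle, square and triangle are libraries 1, 2 and 3). Ifit1 is at the 0-count value of -1.71 in the 3 liver NK controls, Mx1 lies below the controls in RARα403 liver NK cells and spleen ILC1s, and Rtp4, Gbp2 and Samhd1 have an extreme value in liver NK RARα403 library 1.

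Liver ILC1 controls against liver NK controls gave the largest median difference over the module among the group comparisons. Of the 40 tested genes, 33 had a positive and 7 a negative log2 fold change (ILC1 over NK), with a median of 0.55 against 0.03 for all 14714 genes, of which 52.3% were positive. All 4 sensors, all 5 IFIT genes, all 4 tested OAS genes, all 4 signal transducers and both Isg15 and Usp18 were on the positive side. 12 genes lay above every NK control in all 3 ILC1 controls (Isg15, Ddx58, Zbp1, Ifit1bl1, Oasl1, Oasl2, Isg20, Bst2, Rtp4, Ifi44, Parp14, Igtp), and 8.71% of all genes did so. Only Samhd1 lay below every NK control, as did 8.2% of all genes.

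**Figure D3:**
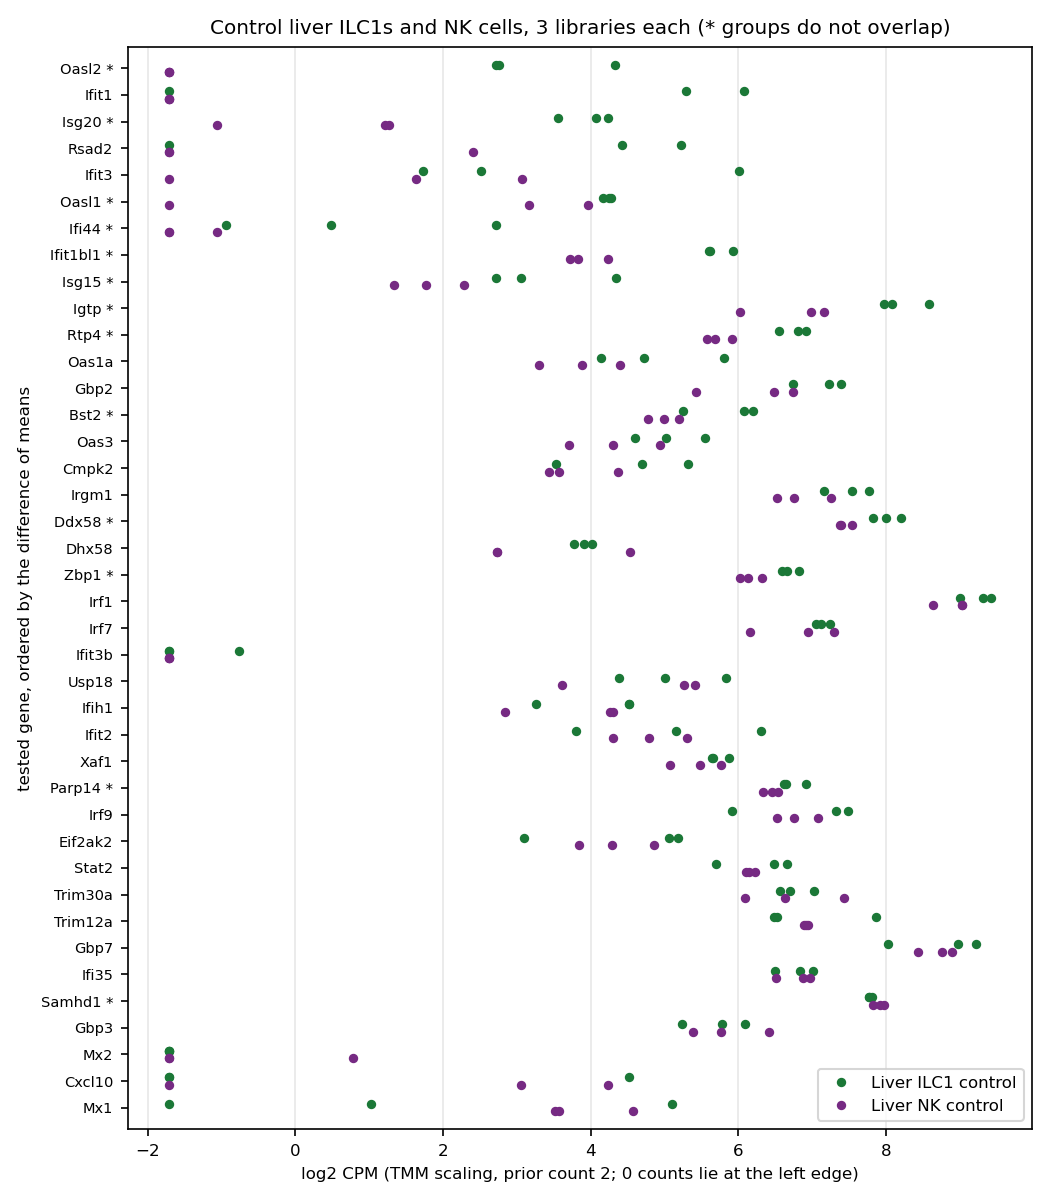
Levels (log2 CPM) of the 40 tested genes in 3 control liver ILC1 libraries (green) and 3 control liver NK libraries (purple), ordered by the difference of the group means, with an asterisk where the groups do not overlap. Green points lie to the right of purple ones for 12 genes marked with an asterisk, from Oasl2 down to Parp14, and Samhd1 is the marked gene in the other direction.

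None of these 40 genes passed the test: 0 were called, against 89 of all 14714 genes (0.605%; 63 higher and 26 lower in ILC1s). At an unadjusted p under 0.05 there were 6 (Ifit1, Ifit1bl1, Oasl2, Isg20, Bst2, Igtp), 15% of those tested against 7.91% of all genes. DESeq2 called 2 of them, Ifit1 and Oasl2 (2.94% of all genes), and limma-voom 1, Ifit1bl1 (3.26% of all genes). Ifit1 and Oasl2 had no reads in the NK controls, so their difference is a lower bound against 3 counts per library: Ifit1 was at least 81.1-fold higher in ILC1s (edgeR adjusted p = 0.305), with 1 of the 3 ILC1 libraries also at 0, and Oasl2 at least 24.9-fold higher (edgeR adjusted p = 0.413).

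Igtp averaged 8.21 ± 0.32 (SD, n = 3) in ILC1s and 6.72 ± 0.61 (SD, n = 3) in NK cells, a log2 fold change of 1.44 with a standard error of 0.59 (edgeR adjusted p = 0.544). Ifit1bl1 averaged 5.72 ± 0.18 and 3.93 ± 0.27 (SD, n = 3 each), a log2 fold change of 1.80 with a standard error of 0.79 (edgeR adjusted p = 0.604). Both differences are larger than the SDs of the groups, but neither passed the test that takes its spread from all 18 libraries. With only the compared groups in the fit, Ifit1bl1 (edgeR adjusted p = 0.026), Oasl2 (0.0295) and Igtp (0.0476) passed the threshold, along with 2.98% of all genes.

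Transcripts of marker genes of other cell types differed between the same groups. Erythroid markers summed to 2360, 0 and 0.22 CPM in liver ILC1 controls 1, 2 and 3, and to 0.111 to 31.8 CPM in the NK controls. Hepatocyte markers summed to 0.879 to 32.3 CPM in the ILC1 controls, with control 1 the highest, and to 0 in the NK controls. T cell markers (6 of 6 detected over the series) summed to 184 to 483 CPM in the liver ILC1 controls and to 11.1 to 27.6 CPM in the NK controls, and B cell markers (6 of 6) to 419 to 803 and 223 to 240 CPM. In the ILC1 controls Cd3g, at 7.62, made up most of the T cell sum, with Trac at 5.69 and Cd3d, Cd3e, Cd4 and Cd8a at 4.13 or lower. Ighm made up most of the B cell sum, while Ms4a1 had no reads in either group. The monocyte and macrophage markers summed to 52.1 to 422 CPM in ILC1s and 445 to 658 CPM in NK cells. In the NK controls Ly6c2 was high (9.0), and Csf1r, Adgre1, Lyz2, C1qa, C1qb and Ms4a7 had no reads. Cd68 stood at 3.16 in the NK controls and 0.98 in the ILC1 controls. Lyz2 had 1560, 16 and 0 counts in the ILC1 controls. Plasmacytoid dendritic cell markers summed to 77.1 to 113 CPM in the ILC1 controls and 77.7 to 120 CPM in the NK controls. Siglech and Spib had no reads in the liver ILC1 controls, and Cox6a2 had 15, 0 and 4 counts. Tcf4 had 395, 330 and 275 counts there, and 767, 825 and 438 in the NK controls. Ccr9 had 144, 59 and 97 counts in the ILC1 controls, and 0, 15 and 0 in the NK controls. The part of such transcripts in the difference over the module was not tested. Of the identity genes, the gate markers Itga1 (CD49a) and Il7r stood at 8.04 and 8.16 in the ILC1 controls against 0.49 and 5.42 in the NK controls, and Eomes, an NK cell factor, at 3.03 against 9.11, as the gates and labels would have them.

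Genes that act in the same pathway but lie outside the module were read from fixed lists in the same comparison. Of 88 further interferon response genes, 81 were tested, with a median log2 fold change of 0.53, and 1 was called: Ly6e, a GPI-anchored surface protein, was higher in ILC1s at 10.96 ± 0.16 against 9.28 ± 0.24 (SD, n = 3 each; log2 fold change 1.68, edgeR adjusted p = 0.0151). Of 22 tested receptors and signalling genes, Irf8, a lymphoid and myeloid IRF, was lower in ILC1s at 7.63 ± 0.51 against 10.04 ± 0.02 (SD, n = 3 each; log2 fold change -2.35, edgeR adjusted p = 0.0212), and none was higher. Of 15 inhibitors, Socs2 was higher in ILC1s at 7.99 ± 0.41 against 3.34 ± 0.48 (SD, n = 3 each; log2 fold change 4.68, edgeR adjusted p = 0.000646). Of 13 ligand genes, 3 had enough reads to be tested (Ifng, Il15, Il18) and none was called. Ifng stood at 7.06 ± 0.79 in ILC1s and 6.78 ± 0.83 in NK cells (SD, n = 3 each). In the comparisons of RARα403 with control and of spleen with liver, none of these lists had a called gene.

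The question of the RARα403 comparisons was which genes depend on retinoic acid receptor signalling in each population. In liver ILC1s, 12 of the 40 tested genes had a positive and 28 a negative log2 fold change (RARα403 over control), with a median of -0.35 against a median of 0 for all genes. None was called, as for all genes (0%), none had an unadjusted p under 0.05 (2.94% of all genes), and DESeq2 (0.231% of all genes) and limma-voom (0%) called 0. By the difference of mean log2 CPM, 14 genes were positive and 26 negative with all libraries (median -0.33), and 17 positive and 23 negative without the library labelled RARα403 1 (median -0.07), where 47.2% of all genes were negative. 6 genes lay below every control in all 3 RARα403 libraries (Zbp1, Oasl1, Oasl2, Isg20, Rtp4, Xaf1; 4.43% of all genes did so), and 0 lay above (5.08% of all genes). Without the library labelled RARα403 1, these 6 and Ifi44 lay below (7.61% of all genes), and Mx2 and Trim30a above (9.35%).

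Of the 4 genes with the smallest p among those whose higher group averaged 3 log2 CPM or more, Zbp1, a sensor of Z-form nucleic acids that triggers necroptosis, stood at 5.87, 6.40 and 6.17 under RARα403 and at 6.82, 6.65 and 6.59 in controls. Its log2 fold change was -0.52 with a standard error of 0.35 (edgeR adjusted p = 1). Oasl2 had a log2 fold change of -2.59 with a standard error of 2.22, and Bst2 of -0.48 with a standard error of 0.42 (edgeR adjusted p = 1 for both). Trim12a went the other way, at 0.79 with a standard error of 0.40 (edgeR adjusted p = 1), and 1 of its 3 controls, at 7.86, lay within the RARα403 values. Each of these differences is less than 2 standard errors. Markers differed between these groups too. Erythroid markers were uneven in both groups, at 1162, 770 and 0 CPM in RARα403 libraries 1, 2 and 3 and 0 to 2360 CPM in controls. T cell markers summed to 405 to 661 CPM under RARα403 and 184 to 483 CPM in controls, but single T cell markers went both ways. Cd3g, the largest part of the sum, stood at 8.21 against 7.62 in controls, and Cd3e and Cd3d were higher too. Trac stood lower, at 5.09 against 5.69, as did Cd4. Cd8a had no reads under RARα403 and 63, 28 and 0 counts in the controls. Monocyte and macrophage markers summed to 248 to 952 CPM under RARα403 and 52.1 to 422 CPM in controls. Single markers of this list went both ways. Ly6c2 stood at 8.73 against 6.79 in controls, and C1qc, Clec4f and Ms4a7 were higher too, at low levels. Lyz2 stood lower, at 0.26 against 2.77, as did Csf1r, Adgre1, Cd68, C1qa, C1qb and Cd5l. Of the identity genes, Eomes stood at 5.78 against 3.03 and Zfp683 (Hobit), a factor of tissue-resident lymphocytes, at 5.73 against 6.82. Il7r, a marker of the ILC1 gate, was higher under RARα403, at 9.45 against 8.16. Itga1 stood at 7.40 against 8.04, Itga2 at 4.84 against 3.89 and Cxcr6 at 9.85 against 10.13. The part of all these transcripts in the result was not tested.

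In liver NK cells, 25 of the 40 tested genes had a positive and 15 a negative log2 fold change, with a median of 0.21 against 0 for all genes. None was called by edgeR (0% of all genes) or limma-voom. DESeq2 called 2, Ifit1 and Oasl2 (1.07% of all genes), and 5 had an unadjusted p under 0.05 (Stat2, Ifit1, Oas3, Oasl2, Samhd1), 12.5% of those tested against 9.64% of all genes. By the difference of mean log2 CPM, 20 genes were positive and 20 negative with all libraries (median 0.02), and 26 positive and 14 negative without the library labelled RARα403 1 (median 0.32), where 50.6% of all genes were positive. Ifit2 lay above every control in all 3 RARα403 libraries (3.77% of all genes did so), and Mx1 below (4.72%). With RARα403 libraries 2 and 3 alone, 7 genes lay above every control (Ifit1, Ifit2, Ifit3, Cmpk2, Isg20, Trim12a, Rtp4; 9.56% of all genes), and Mx1 below (7.8%).

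The library labelled liver NK RARα403 1 carries much of this comparison. Samhd1 had the smallest p, with a log2 fold change of 1.90 and a standard error of 0.59 (edgeR adjusted p = 0.428), but libraries 2 and 3, at 7.70 and 8.21, lie on either side of the controls at 7.82 to 7.97. Oas3 (1.64 with a standard error of 0.64, edgeR adjusted p = 0.453) and Stat2 (0.97 with a standard error of 0.44, edgeR adjusted p = 0.503) were likewise highest in that library. Ifit1bl1 was lower, at -1.45 with a standard error of 0.79 (edgeR adjusted p = 0.574), and without RARα403 library 3, whose level of 3.93 lies among the controls, it passed the threshold at -4.24 (edgeR adjusted p = 0.0233; 0.006% of all genes).

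Ifit1, absent from the NK controls, was at least 52.9-fold higher in the mean of the RARα403 libraries, Oasl2 at least 18.7-fold and Ifit3b at least 4.90-fold, all measured against 3 counts per library. For Oasl2 and Ifit3b this rests on library 3 alone, and for Ifit1 on libraries 2 and 3, of which library 3 (6.02) far exceeded library 2 (1.99). Library 3 held the highest value of its group for 27 of the 40 tested genes, against 29.2% of all genes. B cell markers summed to 21.8 to 375 CPM in this group and to 223 to 240 CPM in its controls, and monocyte and macrophage markers to 45.4 to 274 and 445 to 658 CPM. Ly6c2 made up most of the latter sum, at 7.32 against 9.0 in controls, and Csf1r, Adgre1, Lyz2, C1qa and C1qb had no reads in either group. The part of these transcripts in the result was not tested.

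In spleen ILC1s, 13 of the 40 tested genes had a positive and 27 a negative log2 fold change, with a median of -0.32 against -0.00303 for all genes. None was called by edgeR (0% of all genes), DESeq2 (0.14%) or limma-voom (0%), and 1 had an unadjusted p under 0.05 (Ifi44), 2.5% of those tested against 2.89% of all genes. By the difference of mean log2 CPM, 12 genes were positive and 28 negative with all libraries (median -0.40), and 15 positive and 25 negative without the library labelled RARα403 1 (median -0.25), where 50.8% of all genes were negative. 7 genes lay below every control in all 3 RARα403 libraries: Irf1, Ifit2, Oasl1, Mx1, Samhd1, Rtp4 and Gbp2, where 4.87% of all genes did so. None lay above (4.12% of all genes). Without the library labelled RARα403 1 the same 7 genes lay below every control (9.44% of all genes), and Ddx58, Trim12a and Gbp7 lay above (9.4%).

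Mx1 averaged 0.67 ± 2.12 under RARα403 and 4.60 ± 0.61 in controls (SD, n = 3 each), a log2 fold change of -3.43 with a standard error of 1.98. Ifit2 averaged 2.50 ± 3.65 and 5.62 ± 0.45 (log2 fold change -1.64, standard error 1.00), Rtp4 5.05 ± 0.92 and 6.52 ± 0.11 (-1.28, standard error 0.93), and Oasl1 1.19 ± 2.60 and 4.23 ± 0.21 (-2.08, standard error 1.63; SD, n = 3 each). The edgeR adjusted p was 1 for all 4. In each of them the controls were close together and the RARα403 libraries scattered downwards. Ifi44, with 0 counts, 5.20 and 0.78 in the controls, had no reads in any RARα403 library, so it was at least 28.2-fold lower against 3 counts per library, with spleen control 2 as the source of most control reads. B cell markers summed to 343 to 2885 CPM in the spleen controls and 342 to 875 CPM under RARα403, and plasmacytoid dendritic cell markers to 101 to 283 and 84.8 to 115 CPM. Endothelial markers summed to 73.9 to 308 and 44.8 to 117 CPM. Kdr had 32, 33 and 368 counts in the controls and 0 in every RARα403 library, whereas Pecam1, Cdh5, Stab2 and Clec4g overlapped between the genotypes. The highest B cell, plasmacytoid dendritic cell and endothelial sums, 2885, 283 and 308 CPM, were all those of spleen control 3. Erythroid markers were uneven in both genotypes, at 0.184 to 741 CPM in controls and 1.43 to 2502 CPM under RARα403, where RARα403 library 3 was the highest. Their part in the result was not tested.

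Averaged over the 3 populations, the RARα403 effect had a median of -0.04 over the 40 tested genes (18 positive, 22 negative), and none was called by edgeR (0% of all genes) or limma-voom (0.0816%), while DESeq2 called Oasl2 (0.547% of all genes). 3 genes had an unadjusted p under 0.05: Mx1 (log2 fold change -3.10, standard error 1.13), Ifit1 (3.82, standard error 1.47) and Trim12a (0.55, standard error 0.23), with an edgeR adjusted p of 0.763 each. Irf1 followed at -0.37 with a standard error of 0.19 (edgeR adjusted p = 0.783). The sample codes in the labels open with 1 for every library 1 and with 2 for libraries 2 and 3, so these may have been handled as separate sets, and the fit with libraries 2 and 3 only is the value within a set. In it, Trim12a passed the threshold at 0.91 (edgeR adjusted p = 0.0288; 0.0916% of all genes), and no other gene of the module did.

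Whether the RARα403 effect differed between populations was tested directly. None of the 40 genes passed for liver ILC1s against liver NK cells (0% of all genes; 5 at an unadjusted p under 0.05: Stat2, Ifit1, Oasl2, Mx2 and Samhd1; 1, Oasl2, by DESeq2, with 0.302% of all genes; 0 by limma-voom). Stat2 had the difference of -1.39 with a standard error of 0.61 and Samhd1 of -1.75 with a standard error of 0.82 (edgeR adjusted p = 0.797 each), and Samhd1 turned to 0.10 without the library labelled liver NK RARα403 1. None passed for spleen against liver ILC1s either (0% of all genes; 0 at an unadjusted p under 0.05, and 0 by DESeq2, with 0.126% of all genes, and by limma-voom). A test of any difference among the 6 groups called 91 genes (0.618%) and none of the module, with Samhd1 (edgeR adjusted p = 0.212) and Ifit1bl1 (0.294) nearest and the only members with an unadjusted p under 0.05. DESeq2 called these 2 (5.38% of all genes), and limma-voom called Ifit1bl1 (3.11%). Without liver NK RARα403 library 2 edgeR called Samhd1 (2.04% of all genes), without library 3 both (1.84%), and with libraries 2 and 3 of every group only Trim12a (1.35%).

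Between tissues, control spleen ILC1s and control liver ILC1s were close: 21 genes had a positive and 19 a negative log2 fold change (spleen over liver), with a median of 0.03, equal to that of all genes at this precision. None was called by edgeR (0% of all genes), DESeq2 (0.182%) or limma-voom (0%), and none had an unadjusted p under 0.05 (3.18% of all genes). Samhd1 lay above every liver control (4.82% of all genes did so), and Ddx58 and Xaf1, a pro-apoptotic interferon target, lay below (4.15%). Among genes whose higher group averaged 3 log2 CPM or more, the 4 smallest p values belonged to Parp14 (log2 fold change -0.33, standard error 0.34), Cxcl10 (2.42, standard error 2.82), Igtp (-0.49, standard error 0.58) and Trim30a (0.48, standard error 0.61), with an edgeR adjusted p of 1. This comparison shares its liver ILC1 controls with that against NK cells and with the RARα403 comparison of liver ILC1s.

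The filter on low counts decides several of these calls. Without it, 32798 genes were tested, and edgeR called Ifit1, Oasl2 and Samhd1 for RARα403 in liver NK cells (1.59% of all genes), Ifit1 and Oasl2 for the liver ILC1 controls against the NK controls (1.08%) and for the RARα403 effect in liver ILC1s against NK cells (0.817%), and Ifit1 and Mx1 for the mean RARα403 effect (0.701%). For any difference among the groups it called Ifi44, Ifit1, Ifit1bl1, Mx1, Oasl2, Rsad2 and Samhd1 (5.85%). It called no member for RARα403 in liver ILC1s (0.131%) or spleen ILC1s (0.0976%), for spleen against liver ILC1 controls (0.238%) or for the RARα403 effect in spleen against liver ILC1s (0.125%). Samhd1 in liver NK cells had an edgeR adjusted p of 0.000172 in that fit, with the 1 high library named above.

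The mean log2 CPM over all 41 genes summarises each library. By group it was 5.18 ± 0.49 in spleen ILC1 controls, 4.87 ± 0.55 in liver ILC1 controls, 4.54 ± 0.39 in liver ILC1s and 4.5 ± 0.80 in spleen ILC1s of RARα403 mice, 4.05 ± 0.28 in liver NK controls and 3.75 ± 1.43 in RARα403 liver NK cells (SD, n = 3 each). Neighbours in this order differ by less than the larger of their SDs. The liver ILC1 controls, at 4.47 to 5.49, did not overlap the liver NK controls, at 3.73 to 4.27. The RARα403 means were apart from their controls by -0.32 in liver ILC1s, -0.30 in liver NK cells and -0.68 in spleen ILC1s. The mean over all tested genes was apart by 0.045, -0.24 and -0.066, so the module value in liver NK cells was near that of all genes. Without the libraries labelled RARα403 1 the module differences were -0.16, 0.40 and -0.39, so that the direction in liver NK cells turned. Averaged over the populations, the difference was -0.43 with all libraries and -0.049 without these. No p is given for this mean, since the genes were chosen with earlier results known.

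**Figure D4:**
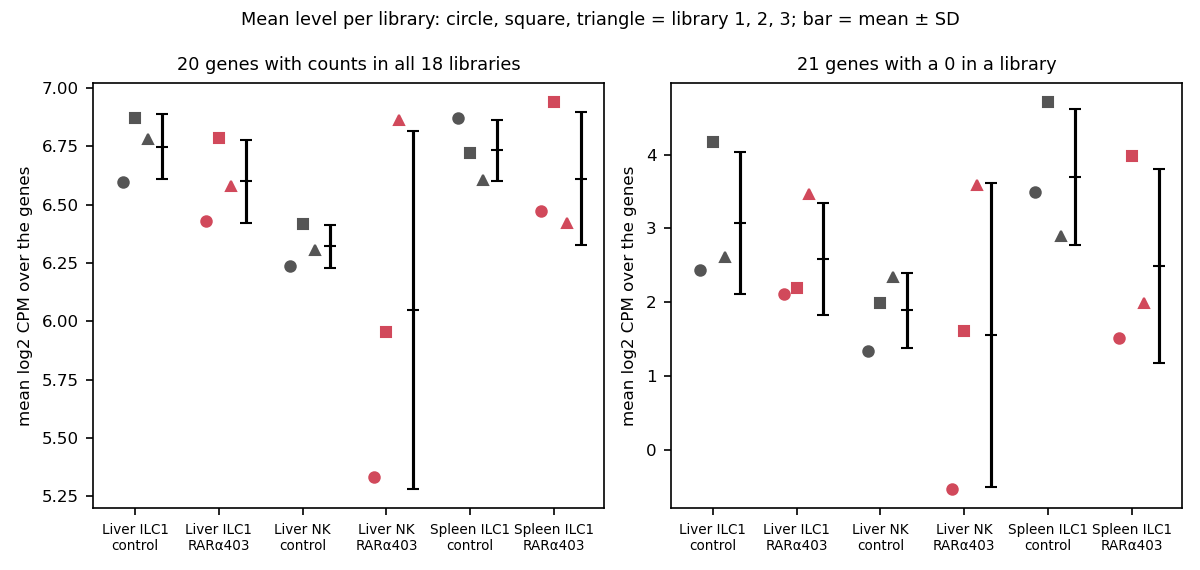
Mean log2 CPM per library over the 20 genes with counts in all 18 libraries (left) and over the 21 genes with 0 counts in some library (right), for the 6 groups (grey controls, red RARα403; circle, square and triangle are libraries 1, 2 and 3; bars give the mean and SD of 3 libraries). The steady genes lie at 6.32 to 6.75 in the group means of all but the RARα403 NK cells (6.05), and the sporadic genes have SDs of 0.50 to 2.06 within a group.

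The split into steady and sporadic genes rests on zeros in these same libraries, so larger spreads of the sporadic genes follow from it, and 8 of the 21 are in that set only through the library labelled liver NK RARα403 1. Over the 20 genes with counts in all libraries, liver ILC1 controls stood at 6.75 ± 0.14 and liver NK controls at 6.32 ± 0.09 (SD, n = 3 each), a difference of 0.43, while the RARα403 differences were -0.15 in liver ILC1s, -0.27 in liver NK cells and -0.12 in spleen ILC1s. Without the libraries labelled RARα403 1 these were -0.066, 0.087 and -0.053, so that the direction in liver NK cells turned. Over the other 21 genes the liver controls stood at 3.07 ± 0.96 and 1.89 ± 0.50, and spleen ILC1s at 3.70 ± 0.92 in controls and 2.49 ± 1.31 under RARα403 (SD, n = 3 each). Their RARα403 differences were -0.48 in liver ILC1s, -0.34 in NK cells and -1.21 in spleen ILC1s, and -0.25, 0.71 and -0.72 without the libraries labelled RARα403 1. Within groups, the median SD of a tested gene was 0.62 for the 20 steady members, against 0.63 for all genes with counts in every library, and 1.95 for the 20 tested sporadic members, against 1.62 for all genes with a 0.

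Single libraries were high or low across much of the module. Spleen RARα403 library 2 had the highest value of its group for 30 of the 40 tested genes, where 30.1% of all genes had their highest value there, and its module mean was 5.42 against 3.93 and 4.15 for libraries 1 and 3. Liver NK RARα403 library 3 was highest for 27, with a module mean of 5.18 against 2.33 and 3.73. Liver ILC1 control 2, liver ILC1 RARα403 3 and liver NK control 3 were each highest for 20 of 40 genes (29.2%, 29.1% and 29.5% of all genes). Members were thus high together in a library of either genotype.

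By role, the RARα403 comparisons are given as differences of mean log2 CPM with all libraries and without the libraries labelled RARα403 1. Of the 4 tested genes of the OAS family (Oas1a, Oas3, Oasl1, Oasl2), 4 were negative in liver ILC1s with all libraries (median -0.80) and 3 without (median -0.69), where Oas3 turned to 0.073. In spleen ILC1s 3 were negative with all libraries (median -0.68), with Oasl2 at 0.049, and 4 without (median -0.58). In liver NK cells 3 were positive with all libraries (median 0.69) and 2 without (median -0.17). Over all genes, 48.0%, 52.5% and 54.0% were negative in these populations with all libraries, and 47.2%, 50.8% and 46.2% without.

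The IFIT genes were positive for 4 of 5 in liver NK cells both with all libraries (median 1.28) and without those labelled RARα403 1 (median 2.22), and for 2 of 5 in liver ILC1s both ways (medians -0.31 and -0.27). In spleen ILC1s 0 of 5 were positive with all libraries (median -1.96) and 1 without (median -0.42). Of the 5 GTPase genes, 1 was positive in liver NK cells with all libraries (median -1.65) and 5 without (median 0.33), so that their direction there turned without that library. In ILC1s the GTPase medians were 0.083 and 0.087 in liver and -0.098 and -0.14 in spleen. edgeR's test with the filter on low counts called none of the OAS, IFIT and GTPase genes in the 3 RARα403 comparisons with all libraries, whereas DESeq2 and the fit without the filter called Ifit1 and Oasl2 in liver NK cells, and edgeR called Ifit1bl1 there without RARα403 library 3. Neighbours within a stretch, such as the IFIT genes, may share reads, as given above.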

How the data were processed

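The authors deposited raw read counts per gene for 18 libraries. Per the submitters' processing notes, fastp 0.23.0, HISAT2 2.1.0, featureCounts and Subread 1.6.5 were used with mm10, and strand and multi-mapping settings are not stated in the sources used here. Counts were whole numbers and were used as deposited; genes without a symbol held 0.0544% of them. The 41 members and the pathway lists were chosen with earlier results of these data known.

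Genes with at least 10 counts in enough libraries (filterByExpr) were kept, 14714 in all, including 40 members. Groups were compared with edgeR 4.0.16 (R 4.3.3; quasi-likelihood test, TMM scaling, 1 mean per group over all 18 libraries) and Benjamini-Hochberg adjustment over all genes tested. DESeq2 1.42.0, limma 3.58.1 (voom with quality weights), other scaling, no filter, other sample sets and a replicate block were alternatives. The edgeR step was tested on simulated data. Gene models are those of GENCODE M21 (GRCm38), promoters those of RefSeq (GRCm38.p6).

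A set of 17 members was always to be named with values. In each comparison, members past the threshold were added and, where fewer than 4 passed, the 4 with the smallest p whose higher group averaged 3 log2 CPM or more; genes whose groups did not overlap are listed as counts. Others named outside this rule (Ifit2, Oasl1, Samhd1, Trim12a, Rtp4 and Oas3 in comparisons where they were not among the 4) were chosen after their values were seen. Replicate numbers of the labels were checked for pairing: in 0 of 9 pairs of groups did every same-number correlation exceed 0.1 (they ran from -0.03 to 0.25), so the numbers were not taken to pair libraries.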

Additional observations from a re-analysis of the deposited data

Results flagged for a closer look

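Ifit2 had opposite directions in liver NK cells and spleen ILC1s. All 3 liver NK RARα403 libraries lay above their 3 controls (log2 fold change 1.29, edgeR adjusted p = 0.749), and all 3 spleen RARα403 libraries lay below theirs (log2 fold change -1.64, edgeR adjusted p = 1). The difference between these 2 populations was not tested. Neither effect passed the threshold, 1 of the spleen RARα403 libraries had 0 counts of Ifit2, and a library labelled RARα403 1 is in both sets.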

How the results depend on the processing

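The count of called members was 0 in the 9 tests and stayed 0 under RLE scaling, with the opening number of the sample code as a term and with the replicate block, which changed no call of a member; in 5 of 9 pairs of groups every library correlated best with its own number, a hint from the data and not from the design. Without a filter on low counts the count became 3 for RARα403 in liver NK cells (Ifit1, Oasl2, Samhd1), 2 for control liver ILC1s against NK cells (Ifit1, Oasl2), 2 for the mean RARα403 effect (Ifit1, Mx1), 2 for the effect in liver ILC1s against NK cells (Ifit1, Oasl2) and 7 for any difference among groups. DESeq2 gave 2, 2, 1, 1 and 2 for these tests in the same order. With limma-voom the count was 1 for ILC1s against NK cells and 1 for any difference (Ifit1bl1 in both), with only the groups compared 3 for ILC1s against NK cells, and with libraries 2 and 3 only 1 for the mean RARα403 effect and 1 for any difference (Trim12a in both). The fit of only the groups compared has no meaning for the test of any difference and was not run there. The cause of these shifts was not tested. Leaving out each library in turn gave 0 to 1 for RARα403 in liver NK cells, 0 to 2 for any difference and 0 for the other tests.

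The module mean differed by -0.54 to -0.01 for RARα403 in liver ILC1s, -1.02 to 0.40 in liver NK cells, -1.14 to -0.39 in spleen ILC1s, -0.67 to -0.20 averaged, 0.50 to 1.01 for control ILC1s against NK cells and 0.06 to 0.62 for spleen against liver, when single libraries were left out. Of the values of single named genes, 902 kept their direction and side of the threshold, 25 passed it only under an alternative and 4 turned: Bst2 in liver ILC1s (0.056 with libraries 2 and 3 only) and Samhd1 in the effect of liver ILC1s against NK cells (0.055 with limma-voom, 0.10 with libraries 2 and 3 only and -2.22 to 0.10 with single libraries left out, where 0.10 is without liver NK RARα403 library 1). Without all the libraries labelled RARα403 1 the averaged difference was -0.049. The counts of genes without overlap for RARα403 libraries 2 and 3 only, and the counts by direction, medians and means without the libraries labelled RARα403 1, were chosen after seeing the data. Low counts limit Oas2, Mx2, Ifit3b, Ifi44, Cxcl10, Rsad2 and Oasl2, for which the chosen floor is 3 counts per library.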
